A study of Sus scrofa with 13 samples.

Results

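Small nucleolar RNAs (snoRNAs) were followed in bulk RNA sequencing of pig liver. The rows of the count table whose gene name begins with SNORA, SNORD or SCARNA were taken where at least 10 reads were counted over the 13 libraries. This held for 153 of the 306 rows with such a name, among 35670 rows in the table. The other 153 snoRNA rows had fewer than 10 reads, and 110 of them had 0. The 153 rows comprised 89 box C/D rows (SNORD), 59 box H/ACA rows (SNORA) and 5 rows of small Cajal body-specific RNAs (SCARNA). SNORD1C, with 10 reads in all, lay just inside the limit and SNORD123, with 9, just outside. The rows carried 126 distinct symbols, and 14 symbols stood for several rows, among them SNORA70 with 7 rows, SNORA71 with 5 and SNORD24 with 3. How reads were shared between such near-identical copies is not given in the sources used here, so a row with a shared symbol is named with its Ensembl identifier and its level is uncertain.

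All animals were female Yorkshire pigs, whose age is not given in the sources used here. Baseline libraries (n = 2, replicates 1a and 2) came from liver without ischemia, reperfusion or cells. Ischemic controls (n = 3) had 45 min of total vascular exclusion of the liver and were sampled after 6 h of reperfusion, with no cells given. Arterial and portal livers (n = 4 each) went through the same procedure but were infused with 3000000 human bone marrow mesenchymal stromal cells (BM-MSCs) per kg body weight, by the hepatic artery in one group and by the portal vein in the other. The cells were thawed human stocks expanded in culture, so a pig liver received cells of another species. Each library is a piece of whole liver, in which fewer cells of a type and less RNA per cell cannot be told apart. Per the study's methods, liver biopsies were taken both before vascular exclusion and after reperfusion, so a baseline library can share its animal with a library of another group. Which libraries share an animal is not given in the sources used here, and p-values measure only the spread between these libraries.

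snoRNAs are short RNAs of the nucleolus that guide chemical modification of other RNAs. Box C/D snoRNAs pair with a target and direct fibrillarin to methylate a ribose, box H/ACA snoRNAs direct dyskerin to turn a uridine into pseudouridine, and the targets are mostly ribosomal RNA. SCARNAs do the same for the small nuclear RNAs of the spliceosome in Cajal bodies. Most vertebrate snoRNAs are cut out of introns of host genes, often ribosomal protein genes, and a few act in cleavage of the ribosomal RNA precursor.

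Mature snoRNAs have no poly(A) tail, and these libraries were made from RNA bound to poly-T beads, without strand information. A read on a snoRNA row can therefore come from the snoRNA or from host transcript that still holds the intron, and the counts do not tell them apart. The sample labels name a miRNeasy kit for RNA extraction and the study's sequencing methods a NucleoSpin RNA kit. Levels are given as CPM, the reads on a row scaled to a common total of 1000000 reads counted on genes. They are not divided by gene length, so levels are compared between libraries and not between genes.

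The total count on genes ranged from 18975413 to 35949178 per library with a median of 30260803, so that a count of 0 allowed up to 0.083 to 0.158 CPM (3 reads, counting error only). Hepatocyte marker genes (8 of 10 found) summed to 38627 to 148430 CPM in every library, as liver tissue would give. In arterial 1, portal 1 and portal 4, only 5.74%, 2.37% and 3.45% of the detected genes had 1 to 9 reads, against 11.0% in arterial 2 and 21.8% to 26.4% in the other 9 libraries. Low counts were thus rare over all genes in these 3 libraries, and the summed levels, medians and main members are also given without them. Control 2 stood apart in another way. It had the smallest total count of the 13 libraries, and its summed erythroid markers (5 of 6 found) came to 881 CPM against 113 and 57.6 CPM in controls 1 and 3 and 42.4 and 66.0 CPM at baseline. Its neutrophil markers (6 of 8 found) came to 354 CPM, against 49.8 and 164 CPM in the other controls and 30.6 CPM in each baseline library. Infused livers reached 702 CPM of erythroid markers in portal 1 and 540 CPM in arterial 4, and 307 CPM of neutrophil markers in arterial 1. The hepatocyte sum was lowest in portal 1 (38627 CPM), control 2 (47453 CPM) and portal 4 (47465 CPM). The part of these cells in the snoRNA levels was not tested.

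Over all 153 rows, snoRNA reads were most abundant at baseline and scarcest in 2 of the 3 ischemic controls. The summed level was 204 and 167 CPM in the baseline libraries. It was 36.8, 151 and 35.8 CPM in controls 1, 2 and 3. It was 47.2, 161, 167 and 81.3 CPM in arterial 1 to 4, and 63.1, 118, 150 and 62.3 CPM in portal 1 to 4. All 11 livers at 6 h of reperfusion lay below both baseline libraries, arterial 3 only just (167.2 against 167.3 CPM in baseline 2). Control 2 lay within the range of the infused livers, whereas controls 1 and 3 lay below all 8 of them. The group means were 186 ± 26.0 CPM at baseline (SD, n = 2), 74.5 ± 66.2 CPM in controls (SD, n = 3), 114 ± 59.4 CPM after arterial infusion (SD, n = 4) and 98.4 ± 43.3 CPM after portal infusion (SD, n = 4). The spread within the control and infused groups was wider than the distance between their means. Without control 2 the control mean was 36.3 CPM, and without arterial 1, portal 1 and portal 4 the infused mean was 136 ± 35.8 CPM (SD, n = 5).

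**Figure D1:**
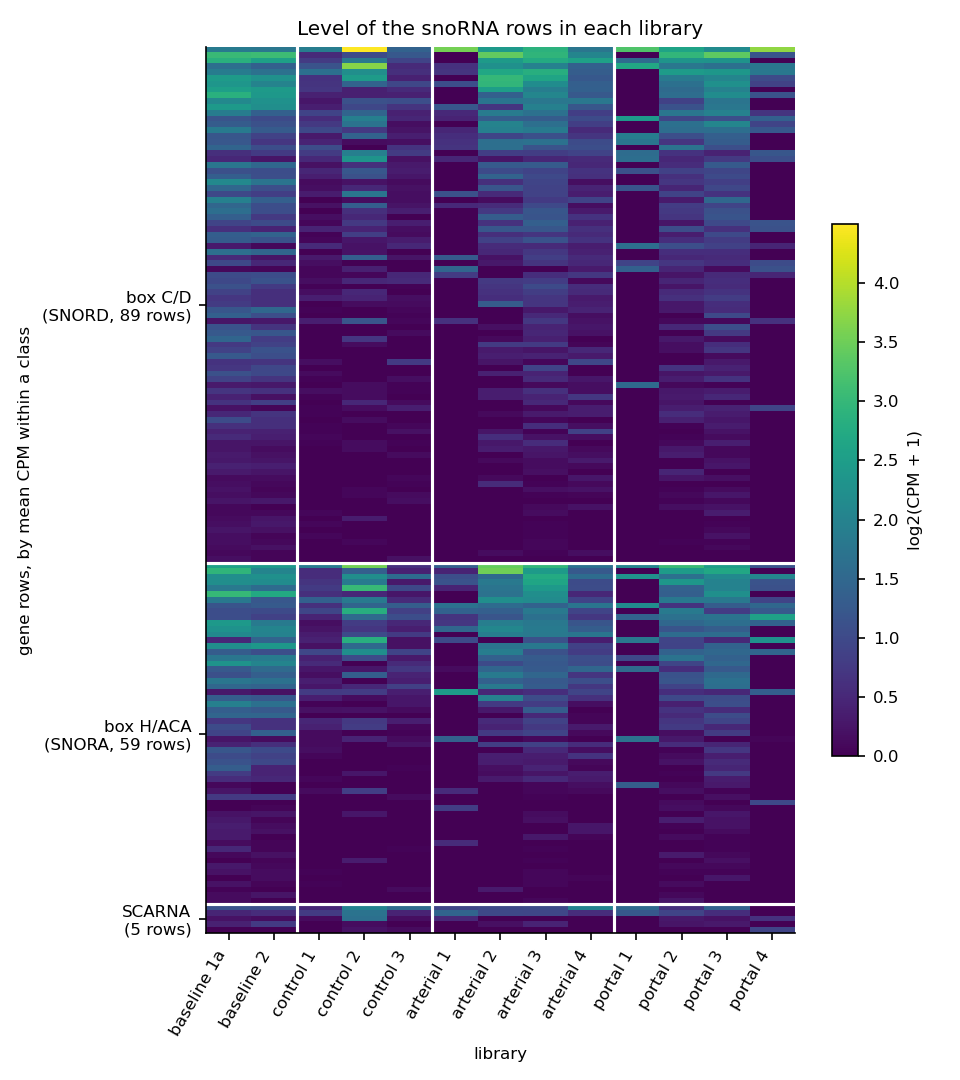
Heat map of the 153 snoRNA rows (vertical axis, box C/D rows above box H/ACA rows above SCARNA rows, each class ordered by mean CPM) in the 13 libraries (horizontal axis, groups parted by white lines). Colour gives log2(CPM + 1). The 2 baseline libraries have reads on nearly all rows, controls 1 and 3 are low throughout, control 2 is high on a few rows only, and arterial 1, portal 1 and portal 4 have 0 reads on most rows.

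Both guide classes followed the same course. Box C/D rows summed to 117 and 93.0 CPM at baseline, to 20.6, 83.4 and 18.0 CPM in controls 1 to 3, to 23.6, 88.8, 93.2 and 47.1 CPM after arterial infusion and to 38.6, 64.9, 85.8 and 35.3 CPM after portal infusion. Box H/ACA rows summed to 85.6 and 71.9 CPM at baseline, to 15.0, 59.9 and 15.3 CPM in controls, to 20.5, 70.4, 71.7 and 30.7 CPM after arterial infusion and to 21.3, 51.5, 61.7 and 25.6 CPM after portal infusion. The ratio of the control mean to the baseline mean was 0.388 for box C/D and 0.382 for box H/ACA. The ratio of the infused mean (n = 8) to the control mean was 1.47 for each class. These ratios rest on control 2: without it, the control mean was 0.184 and 0.192 of the baseline mean for box C/D and box H/ACA, and the infused mean 3.09 and 2.92 times the control mean. The 5 SCARNA rows did not share this order. Their sum was 2.07 and 2.42 CPM at baseline, 1.21, 7.69 and 2.51 CPM in controls, 2.09 to 3.49 CPM after arterial infusion and 1.45 to 3.26 CPM after portal infusion, so the baseline lay inside the ranges of the control and portal groups and at the lower end of the arterial group.

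**Figure D2:**
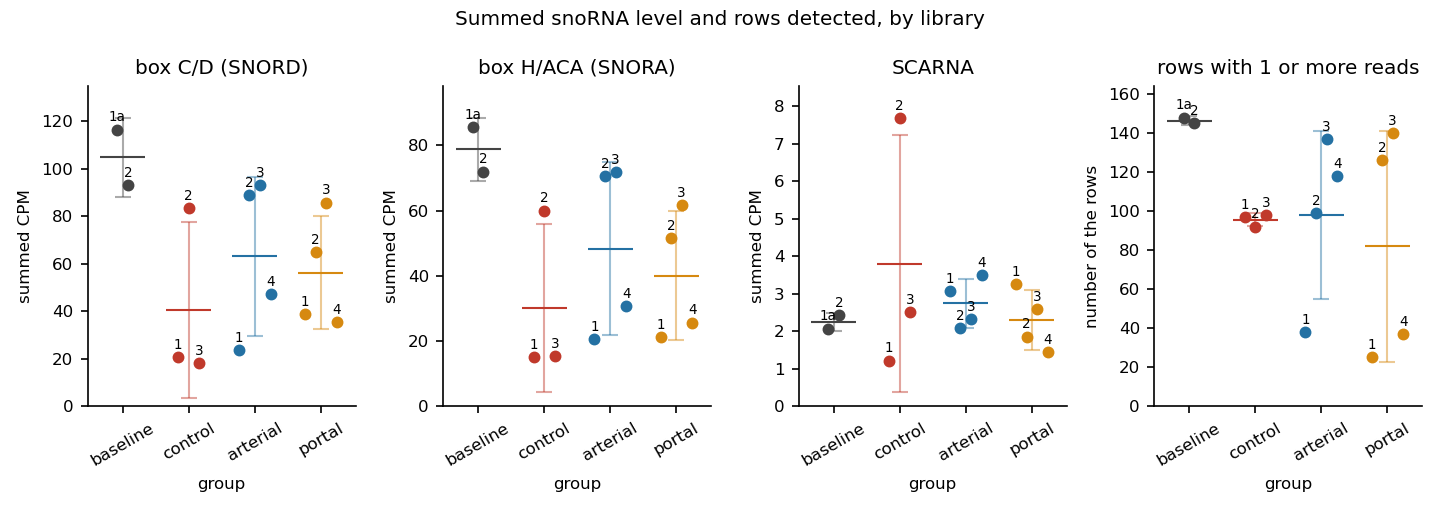
Summed CPM of the SNORD, SNORA and SCARNA rows and the number of the 153 rows with at least 1 read, by group. Each point is a library, labelled with its replicate, the horizontal line is the group mean and the bar its SD. In the first 2 panels controls 1 and 3 lie lowest and control 2 lies with the infused livers, and in the last panel arterial 1, portal 1 and portal 4 lie at 25 to 38 rows.

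The share of box C/D reads among the reads on box C/D and box H/ACA rows needs no scaling between libraries. It was 57.6% and 56.4% at baseline, 57.8%, 58.2% and 54.1% in controls, 53.5%, 55.8%, 56.5% and 60.5% after arterial infusion and 64.5%, 55.8%, 58.2% and 57.9% after portal infusion. The highest share, in portal 1, had a 95% Wilson interval of 61.8% to 67.1% and the lowest, in arterial 1, of 50.8% to 56.2%. The intervals cover counting error only and treat each read as independent. In portal 1 the snoRNA reads lay on 25 rows with at least 18 reads each, so its interval may be too narrow. The intervals do not show that these 2 livers differ. The mean share differed by 0.322 percentage points between controls (56.7% ± 2.25, SD, n = 3) and baseline (57.0% ± 0.876, SD, n = 2), less than the spread between controls. With SNORD99, the row with the most reads, left out, the difference of controls from baseline was -4.18 points.

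The number of rows with reads moved differently from the sum. Reads were counted on 148 and 145 of the 153 rows at baseline and on 97, 92 and 98 rows in controls. In infused livers, 38, 99, 137 and 118 rows had reads after arterial and 25, 126, 140 and 37 after portal infusion. Control 2 thus reached the sum of an infused liver on slightly fewer rows than controls 1 and 3. Its total count was also the smallest, and the number of rows with reads was not adjusted for depth. The 5 rows with the most reads took 37.9% of its snoRNA reads, against 27.9% and 23.5% in controls 1 and 3 and 16.4% and 16.0% at baseline. Arterial 1, portal 1 and portal 4 had the highest such shares, at 44.6%, 40.9% and 43.0%. In portal 1 no row had between 1 and 17 reads, the lowest count above 0 being 18.

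The zeros of these 3 libraries were more frequent on snoRNA rows than on other genes with similar totals. Of the 94 snoRNA rows with 100 or more reads over all libraries, 63.8% had 0 reads in arterial 1, 75.5% in portal 1 and 64.9% in portal 4. Of 5931 other genes in the same range of totals (100 to 2166 reads), 18.6%, 37.1% and 28.1% had 0 there. At baseline, 0% of the 94 rows and 1.79% and 3.12% of the other genes had 0 reads. In controls 1, 2 and 3 the snoRNA rows stood at 14.9%, 22.3% and 17.0%, and the other genes at 3.59%, 10.4% and 1.40%. In all, 95 of the 153 rows had 0 reads in arterial 1, portal 1 and portal 4 alike, and 26 rows had 0 reads in all 3 controls. The shares of all genes were not computed for these last counts.

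The first comparison, ischemic control against baseline, describes the liver after ischemia and 6 h of reperfusion. Of the 153 rows, 127 had a lower mean CPM in controls than at baseline, 78 of 89 box C/D rows, 48 of 59 box H/ACA rows and 1 of 5 SCARNA rows. Control 1 lay below both baseline libraries on 131 rows, control 2 on 104 and control 3 on 131. Baseline had the highest mean of the 4 groups on 109 rows and controls had the lowest on 100. The shares of all genes were not computed for these counts. In the fit described next, 87 of the 111 snoRNA rows tested had a fold change below 0, against 8174 of all 16481 genes tested.

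No row passed the test of this comparison. The test was edgeR's quasi-likelihood F-test, adjusted by the Benjamini-Hochberg procedure across the 16481 genes with enough reads (threshold 0.05), among them 111 of the 153 snoRNA rows (67 SNORD, 40 SNORA and 4 SCARNA). It called 0 of the 111 rows and 0.0% of all genes tested, and the smallest adjusted p of a snoRNA row was 0.978. At an unadjusted p under 0.05, 18 of the 111 rows were lower in controls (12 SNORD, 6 SNORA and 0 SCARNA), against 1.21% of all genes. All 3 controls lay below both baseline libraries on 72 of the 111 rows (46 SNORD, 25 SNORA and 1 SCARNA), against 15.6% of all genes. They lay above both on 1 row, and the share of all genes was not computed for that direction. DESeq2 fitted to the 5 libraries alone, an alternative, called 20 of 108 rows lower (13 SNORD and 7 SNORA) and 0 higher at an adjusted p under 0.05, against 0.387% of 16294 genes called lower. The median log2 fold change over the 111 rows was -2.21, with -2.27 for box C/D, -2.20 for box H/ACA and 1.13 for SCARNA, and it was 0.00481 over all genes tested. A row with high reads only at baseline passes the filter on low counts through that group, so these counts and medians describe the rows tested. With all 153 rows kept, the median was -2.30, 125 rows had a fold change below 0 (9785 of 19924 genes), and 0 rows were called.

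**Figure D3:**
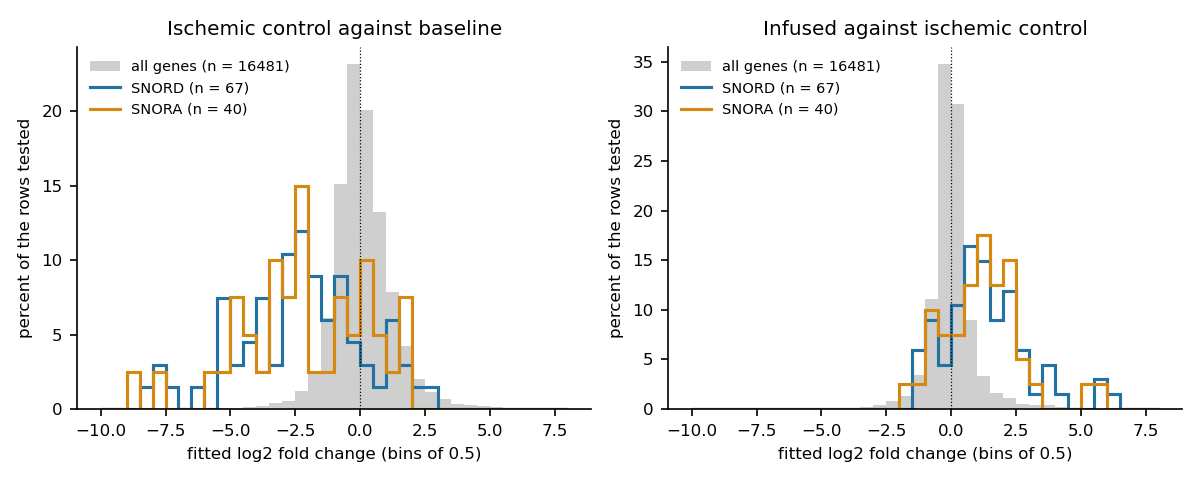
Distribution of fitted log2 fold changes (horizontal axis, bins of 0.5) as a percent of the rows tested (vertical axis) for 67 box C/D rows, 40 box H/ACA rows and all 16481 genes tested. Against baseline both snoRNA classes lie mostly left of 0 in controls, with medians of -2.27 and -2.20, and against controls they lie mostly right of 0 in infused livers, with medians of 1.08 and 1.19.

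Control 2 decided how far the rows lay apart. Without it, the median log2 fold change was -2.99 and 105 of the 110 rows then tested lay below baseline, against 7914 of 16348 genes. Of the 26 rows with a control mean at or above baseline, 17 stood there only because of control 2. With arterial 1, portal 1 and portal 4 left out of the fit, the median was -2.29. Of 106 rows then tested, 86 lay below baseline, against 7793 of 15723 genes.

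Among box C/D members, SNORD21 guides methylation of large subunit ribosomal RNA and lies in an intron of RPL5 in human. It took more reads than any other snoRNA row in both baseline libraries and in portal 3. Its level was 7.30 and 7.48 CPM at baseline (226 and 201 reads) and 0.455, 1.00 and 1.36 CPM in controls 1 to 3 (15, 19 and 45 reads). It was 0, 9.65, 6.68 and 3.12 CPM in arterial 1 to 4 and 0, 6.78, 9.35 and 1.26 CPM in portal 1 to 4. Controls and baseline did not overlap, while the infused livers ranged from 0 to above baseline. The control mean was 0.938 ± 0.455 CPM (SD, n = 3) and the baseline mean 7.39 ± 0.127 CPM (SD, n = 2), which was 7.88-fold higher. The log2 fold change was -2.92 (SE 1.69) and an adjusted p of 0.978 (edgeR), and the two-sided exact permutation test gave p = 0.1, the smallest that 2 against 3 libraries allow. DESeq2 over the 5 libraries gave an adjusted p of 0.00584.

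SNORD24, which also guides methylation of large subunit ribosomal RNA and lies in RPL7A in human, had 3 rows. SNORD24 (ENSSSCG00000019612), the row with the most reads, had 6.24 and 4.28 CPM at baseline (193 and 115 reads) and 0.334, 0.316 and 0.332 CPM in controls (11, 6 and 11 reads). It had 0, 1.59, 3.17 and 1.40 CPM after arterial and 0, 2.05, 3.54 and 1.21 CPM after portal infusion. The 3 controls lay close together, 16.1-fold below the baseline mean, and 6 of the 8 infused livers lay between controls and baseline. The log2 fold change was -3.90 (SE 1.64), an unadjusted p of 0.0316 and an adjusted p of 0.978 (edgeR), and DESeq2 over the 5 libraries gave an adjusted p of 9.93e-05. SNORD24 (ENSSSCG00000062001) had 1.03 and 1.08 CPM at baseline against 0.0607, 0.0527 and 0.423 CPM in controls. SNORD24 (ENSSSCG00000057762) had 1.55 and 1.12 CPM against 0.303, 1.16 and 0.211 CPM, so control 2 overlapped with baseline on this row.

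Of the other box C/D rows with the most reads, SNORD96, which guides methylation of ribosomal RNA, was 9.90-fold lower in the control mean, with 4.81 and 4.47 CPM at baseline and 0.637, 0.316 and 0.453 CPM in controls. SNORD42 had 4.14 and 3.05 CPM at baseline and 0.607, 1.69 and 0.936 CPM in controls. SNORD6 had 6.27 and 4.88 CPM at baseline and 0.728, 2.53 and 0.875 CPM in controls. On these 3 rows no control reached a baseline library. SNORD5, with 4.52 and 3.83 CPM at baseline, was low in controls 1 and 3 (0.576 and 0.332 CPM) but not in control 2 (4.53 CPM). SNORD93 had 2.68 and 2.20 CPM at baseline and 2.15, 3.69 and 0.513 CPM in controls, with no separation of the groups (log2 fold change -0.03, standard error 1.41).

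SNORD99 and SNORD22 behaved differently. SNORD99, which guides methylation of large subunit ribosomal RNA, had the highest mean CPM of the 153 rows. It had 2.55 and 2.42 CPM at baseline and 2.76, 21.6 and 1.66 CPM in controls, so that 1 control stood far above and the other controls near baseline. It was the row with the most reads in controls 1 and 2, arterial 1, portal 1 and portal 4, with 10.7 CPM in arterial 1, 8.56 CPM in portal 1 and 12.5 CPM in portal 4 against 2.38 to 6.37 CPM in the other infused livers. The log2 fold change of controls against baseline was 2.02 (SE 1.04, adjusted p = 0.978, edgeR), and it was -0.18 without control 2. SNORD22 (ENSSSCG00000025513) likewise had 11.8 CPM in control 2 against 1.21 and 0.453 CPM in controls 1 and 3 and 2.13 and 1.60 CPM at baseline, and its log2 fold change turned from 1.51 to -1.15 without control 2.

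Several box C/D rows had no reads in any control. SNORD45A, a guide of small subunit ribosomal RNA methylation, had 43 and 30 reads at baseline and 0 in all 3 controls, at least 11.07-fold lower against a floor of 3 reads per library. SNORD19B (26 and 32 reads at baseline) was at least 8.97-fold lower and SNORD18 (ENSSSCG00000019587), with 37 and 16 reads, at least 7.91-fold lower. SNORD45B had 32 and 14 reads at baseline and 0, 2 and 0 in controls. SNORD58 (ENSSSCG00000024372) had 30 and 11 reads at baseline and 4, 0 and 0 in controls. Of these 5 rows, SNORD45A had the smallest unadjusted p of all snoRNA rows, 0.00625 with an adjusted p of 0.978 (edgeR).

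Among box H/ACA members, SNORA73 differs from most in acting in cleavage of the ribosomal RNA precursor. It had 7.04 and 5.62 CPM at baseline (218 and 151 reads) and 0.516, 0.422 and 0.211 CPM in controls (17, 8 and 7 reads). After arterial infusion it had 0, 2.25, 3.68 and 0.411 CPM and after portal infusion 0, 1.57, 3.74 and 0 CPM. Every control and every infused liver lay below both baseline libraries. The baseline mean of 6.33 ± 1.01 CPM (SD, n = 2) was 16.5-fold above the control mean of 0.383 ± 0.156 CPM (SD, n = 3), with a log2 fold change of -3.92 (SE 1.97) and an adjusted p of 0.978 (edgeR). DESeq2 over the 5 libraries gave an adjusted p of 0.000113.

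SNORA62 (ENSSSCG00000019894), which lies in RPSA in human, had 6.66 and 3.09 CPM at baseline and 0.485, 1.58 and 0.332 CPM in controls, 6.09-fold lower in the mean and 11.9-fold without control 2. It reached 10.4 CPM in arterial 2, above baseline, and 0 in portal 1 and portal 4. SNORA61 had 3.68 and 3.54 CPM at baseline and 0.607, 2.58 and 0.241 CPM in controls, and SNORA70 (ENSSSCG00000037470) 3.65 and 3.76 CPM against 0.485, 3.64 and 1.96 CPM. On both rows control 2 came closest to baseline. SNORA51 had 55 and 47 reads at baseline and 0 in all controls, at least 15.6-fold lower, and SNORA4 had 37 and 26 reads against 0, at least 9.55-fold lower. SNORA29 had 21 and 19 reads at baseline and 0, 0 and 3 in controls.

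Other abundant box H/ACA rows did not separate controls from baseline. SNORA33, a guide of large subunit ribosomal RNA modification, had 4.91 and 4.36 CPM at baseline and 2.55, 10.6 and 0.543 CPM in controls. SNORA52, with 2.52 and 1.97 CPM at baseline, had 0.698, 7.11 and 0.966 CPM in controls. SNORA24 had 2.49 and 1.34 CPM against 1.61, 2.58 and 0.453 CPM. In these 3 rows control 2 was the highest control. The fold changes of SNORA33 and SNORA52 turned to lower in controls without it (0.20 to -1.56 and 0.60 to -1.45, log2). SNORA31 had 1.26 and 1.41 CPM at baseline and 0.546, 1.74 and 1.51 CPM in controls, and SNORA68 1.10 and 0.819 CPM against 0.364, 1.95 and 1.09 CPM. SNORA68 and SNORA31 were among the 8 rows with reads in all 13 libraries.

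**Figure D4:**
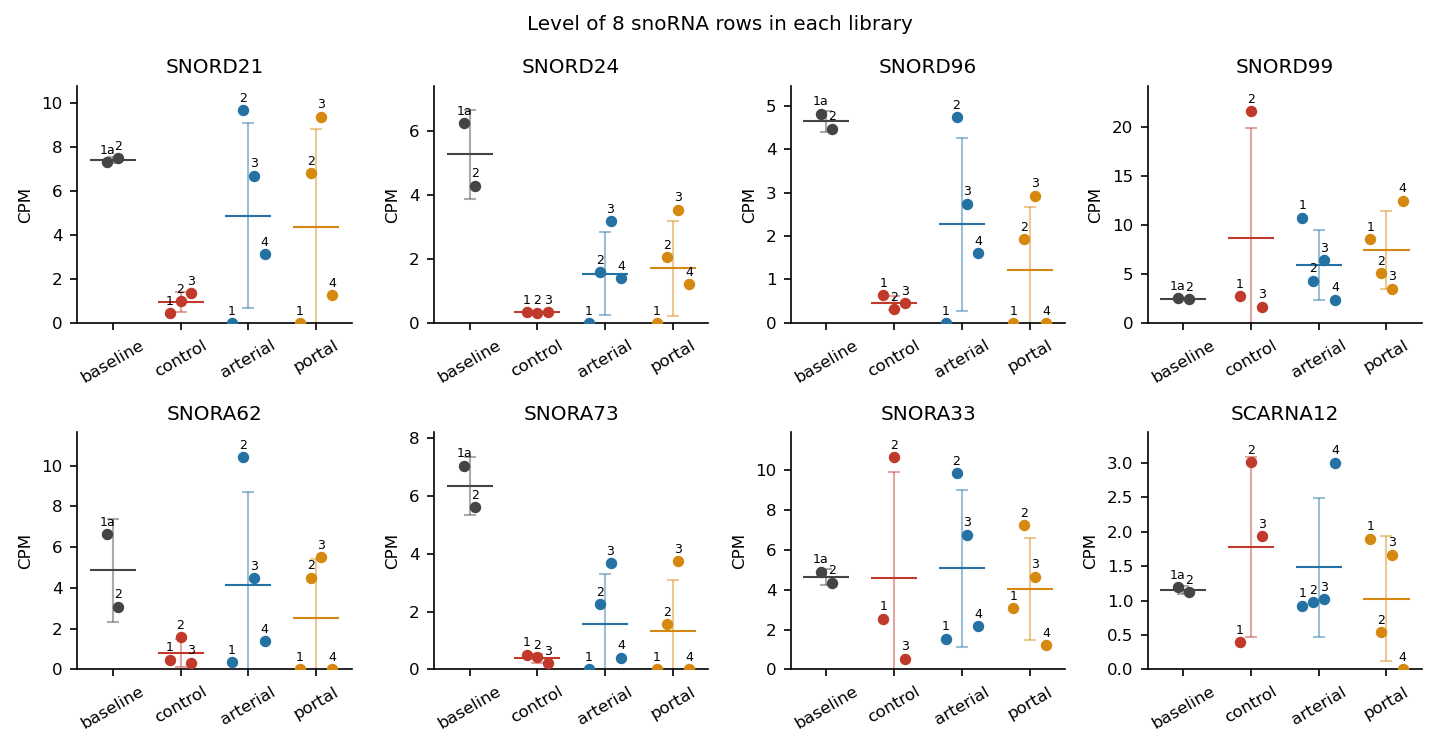
CPM (vertical axis, from 0) of 8 snoRNA rows in the 13 libraries by group, SNORD24 being the row ENSSSCG00000019612 and SNORA62 the row ENSSSCG00000019894. Points are libraries labelled with their replicate, lines are group means and bars SDs. SNORD21, SNORD24, SNORD96, SNORA62 and SNORA73 have all controls below baseline, while control 2 is the highest control at 21.6 CPM for SNORD99, 10.6 CPM for SNORA33 and 3.00 CPM for SCARNA12.

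The SCARNA members are guides for spliceosomal small nuclear RNAs. SCARNA12 had 1.20 and 1.12 CPM at baseline and 0.394, 3.00 and 1.93 CPM in controls. SCARNA2, which guides methylation of the U2 small nuclear RNA, had 0.388 and 0.484 CPM at baseline and 0.728, 2.27 and 0.362 CPM in controls. SCARNA7 had 5 and 3 reads at baseline and 3, 41 and 4 in controls, so that its mean rested on control 2. SCARNA10 had 0 reads in both baseline libraries, 0, 3 and 3 in controls and 19 in portal 4. SCARNA16 was the only SCARNA row with a lower control mean than baseline mean, with 10 and 19 reads at baseline and 0, 2 and 0 in controls. The fold changes of SCARNA12, SCARNA2 and SCARNA7 were 0.74, 1.52 and 2.74 (log2) with standard errors of 1.36, 1.47 and 2.41, and none was called. SCARNA12 and SCARNA7 turned to -0.06 and -0.37 without control 2.

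The second comparison, infused livers (n = 8) against ischemic controls, describes what accompanied BM-MSC infusion. The infused mean lay above the control mean on 120 of the 153 rows, 71 of 89 box C/D rows, 47 of 59 box H/ACA rows and 2 of 5 SCARNA rows, and below the baseline mean on 122. The shares of all genes were not computed for these counts. In the fit, 86 of the 111 rows tested had a fold change above 0, against 7890 of all 16481 genes tested. All comparisons with controls share the same 3 control libraries. Of the 111 rows tested, 0 were called and 0.0% of all genes. At an unadjusted p under 0.05, 6 of the 111 rows were higher in infused livers (4 SNORD and 2 SNORA), against 0.734% of all genes. All infused livers lay above all controls on 0 of the 111 rows, against 0.206% of all genes. The median log2 fold change over the 111 rows was 1.11, or 1.03 with the 6 rows at 0 in all controls set at their bound, and -0.0231 over all genes. With all 153 rows kept it was 1.18, with 116 rows above 0, against 9280 of 19924 genes.

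The infused livers ranged widely among themselves. On the summed level, arterial 2, arterial 3, portal 2 and portal 3 had 118 to 167 CPM, and arterial 1, portal 1, portal 4 and arterial 4 had 47.2 to 81.3 CPM. Without arterial 1, portal 1 and portal 4, the median log2 fold change was 1.76 and 0 rows were called. Of the 106 rows then tested, 87 were higher in infused livers, against 7591 of 15723 genes. Without control 2 the median was 1.83 and 108 of 110 rows were higher, against 8194 of 16348 genes.

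SNORD21 had a mean of 4.61 CPM in infused livers against 0.938 CPM in controls, 4.91-fold higher. The log2 fold change was 2.43 (SE 1.44, edgeR), and the exact permutation test gave p = 0.255. SNORD24 (ENSSSCG00000019612) had 1.62 against 0.327 CPM, 4.95-fold higher (log2 fold change 2.38, standard error 1.36, exact permutation p = 0.139). SNORA62 (ENSSSCG00000019894) was 4.17-fold higher (exact permutation p = 0.370), or 8.16-fold without control 2, and SNORA73 3.80-fold higher (exact permutation p = 0.424). On each of these 4 rows at least 1 infused liver had 0 reads, while every control had reads. The zeros lay in arterial 1, portal 1 and portal 4, where low counts were rare. They therefore do not place these livers below the low levels of the controls. Without arterial 1, portal 1 and portal 4, the infused means of SNORD21, SNORD24, SNORA62 and SNORA73 were 7.59-fold, 7.17-fold, 6.58-fold and 6.09-fold above the control means. SNORD99 had a mean of 6.67 CPM in infused livers against 8.66 CPM in controls (exact permutation p = 0.776), but the control mean was 2.21 CPM without control 2, 3.02-fold below the infused mean.

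The 3 rows with the smallest unadjusted p for infused livers against controls had 0 reads in all controls. SNORD18 (ENSSSCG00000019587) had 0, 5, 13 and 5 reads after arterial and 0, 13, 33 and 0 after portal infusion, at least 2.48-fold higher in the mean (unadjusted p = 0.0267, edgeR). SNORD19B had 0, 9, 7 and 10 reads and 0, 4, 18 and 0, at least 1.77-fold higher (unadjusted p = 0.0298, edgeR). SNORA4 had 0, 10, 9 and 2 reads and 0, 5, 13 and 0, at least 1.34-fold higher (unadjusted p = 0.0343, edgeR). All 3 rows were at 0 in arterial 1, portal 1 and portal 4, and all 3 had an adjusted p of 1.00.

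For arterial infusion against controls, 0 of the 111 rows and 0.0% of all genes were called. At an unadjusted p under 0.05, 6 rows were higher (5 SNORD and 1 SNORA), against 0.625% of all genes. The median log2 fold change was 1.45, or 1.86 without arterial 1, portal 1 and portal 4, and 0.0110 over all genes. With the 6 rows at 0 in all controls set at their bound, it was 1.19. SNORD45A had 0, 11, 12 and 6 reads after arterial infusion against 0 in all controls, at least 1.97-fold higher. For portal infusion against controls, 0 rows and 0.0% of all genes were called. At an unadjusted p under 0.05, 5 rows were higher (3 SNORD and 2 SNORA), against 1.13% of all genes. The median log2 fold change was 0.86, or 1.62 without arterial 1, portal 1 and portal 4, and -0.0225 over all genes. With the same 6 rows set at their bound, it was 0.82. SNORD58 (ENSSSCG00000024372) had 18, 20, 15 and 22 reads after portal infusion against 4, 0 and 0 in controls, so that every portal liver lay above every control (exact permutation p = 0.0286, the smallest that 4 against 3 libraries allow, adjusted p = 1.00 in edgeR). The control level rests on the 4 reads of control 1, and the log2 fold change moved from 3.97 to 7.39 once control 1 was left out. This row had reads in all 4 portal livers. It was named as 1 of the 3 rows with the smallest unadjusted p of this comparison, so its exact p is not independent evidence. The share of all genes with every portal liver above every control was not computed.

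Between arterial and portal infusion the test called 0 of the 111 rows and 0.0% of all genes, and an unadjusted p under 0.05 was reached by 0 of the 111 rows, against 2.4% of all genes. The median log2 fold change of arterial over portal was 0.29, against 0.0359 over all genes, and 0.13 without arterial 1, portal 1 and portal 4. The 3 rows with the smallest unadjusted p were SNORD45A, SNORD45B and SNORA68. SNORA68 had 0.595, 1.28, 2.15 and 0.657 CPM after arterial and 1.70, 2.21, 2.31 and 4.94 CPM after portal infusion, a log2 fold change of -1.12 (SE 0.75, exact permutation p = 0.0571, adjusted p = 1.00 in edgeR). In the test for any difference between the 4 groups, 0 of the 111 rows and 0.0% of all genes were called, and 3 rows, SNORD45A, SNORA29 and SNORA51, had an unadjusted p under 0.05, against 2.39% of all genes.

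The genes of the proteins that carry snoRNAs were not called either. Of the 4 core proteins of box C/D particles (FBL, NOP56, NOP58 and SNU13), 0 were called in any comparison, and their median log2 fold change of controls against baseline was -0.01. FBL, which encodes fibrillarin, the methyltransferase, was higher in controls at an unadjusted p of 0.0323 (edgeR), with 63.8 and 47.6 CPM at baseline and 102, 160 and 72.7 CPM in controls (adjusted p = 0.978). Of the box H/ACA core, DKC1, GAR1 and NOP10 were found, 0 were called and the median was 0.26. Of 12 genes for assembly and transport of the particles, 9 for the ends of snoRNAs, 4 for Cajal bodies and 20 for RNA polymerase I and the nucleolus, 0 were called in any comparison, and the medians of controls against baseline lay between -0.30 and -0.01. NCL, the gene of nucleolin, ranged from 104.8 to 634 CPM in controls against 666 and 795 CPM at baseline.

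Host genes were taken from the known human location of each snoRNA, which was not checked in the pig annotation. A protein-coding host could be named for 100 of the 153 rows and a host without a protein, such as GAS5 or SNHG1, for 30. No symbol of 12 such hosts was found in the count table. Of the 65 tested rows with a tested protein-coding host, in 35 hosts, the snoRNA row had a lower fold change of controls against baseline than its host in 56. The median was -2.17 for the rows and 0.41 for the 35 hosts, of which 26 had a fold change above 0. For infused livers against controls the median was 1.12 for the rows and -0.05 for the hosts. Rows with a host without a protein had a median of -2.54 (26 tested) in controls against baseline, close to -2.21 for the 75 tested rows with a protein-coding host.

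RPL5, on chromosome 4 of Sscrofa11.1 from 124359786 to 124367612 (RefSeq), is the human host of SNORD21. It had 552 and 632 CPM at baseline and 627, 650 and 620 CPM in controls, so that it lay level while SNORD21 was 7.88-fold lower in the mean. SNORA66, the other row with this human host, did not separate the groups. It lay at 0.655, 1.14 and 0.501 of the baseline mean in controls 1 to 3, against 1.07 and 0.927 in the baseline libraries. RPL7A, the human host of SNORD24, had 450 and 425 CPM at baseline and 500, 651 and 602 CPM in controls. RPL5 was lowest in arterial 1 (377 CPM), portal 1 (426 CPM) and portal 4 (483 CPM), where SNORD21 had 0, 0 and 1.26 CPM.

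TAF1D had the lowest fold change of controls against baseline of the 35 hosts, and was singled out after its values had been seen. It encodes a subunit of the factor that brings RNA polymerase I to ribosomal DNA and lies on chromosome 9 from 26154910 to 26167282 (Sscrofa11.1, RefSeq). It had 57.5 and 52.7 CPM at baseline, 20.3, 16.7 and 13.1 CPM in controls, 18.0, 65.3, 58.4 and 26.6 CPM after arterial and 6.71, 49.9, 54.4 and 8.02 CPM after portal infusion. Controls lay below baseline without overlap, and arterial 2, arterial 3, portal 2 and portal 3 were close to baseline. The log2 fold change was -1.63 (SE 0.87, adjusted p = 0.978, edgeR) for controls against baseline and 1.17 with a standard error of 0.70 for infused livers against controls. Of its 5 human snoRNAs in the table, SNORD6, SNORA1 and SNORA8 had all 3 controls below both baseline libraries. This also held for 72 of the 111 snoRNA rows tested, so it is not particular to the rows of this host. SNORA1 had 105 and 80 reads at baseline, 9, 19 and 23 in controls, 0, 99, 89 and 57 after arterial and 0, 63, 59 and 0 after portal infusion. SNORA8 had 137 and 70 reads at baseline, 4, 14 and 14 in controls, 19, 101, 88 and 31 after arterial and 0, 57, 61 and 36 after portal infusion. SNORD5 did not, with control 2 at 1.08 of the baseline mean, nor did SNORA25, with 34 and 27 reads at baseline and 30, 115 and 27 in controls.

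**Figure D5:**
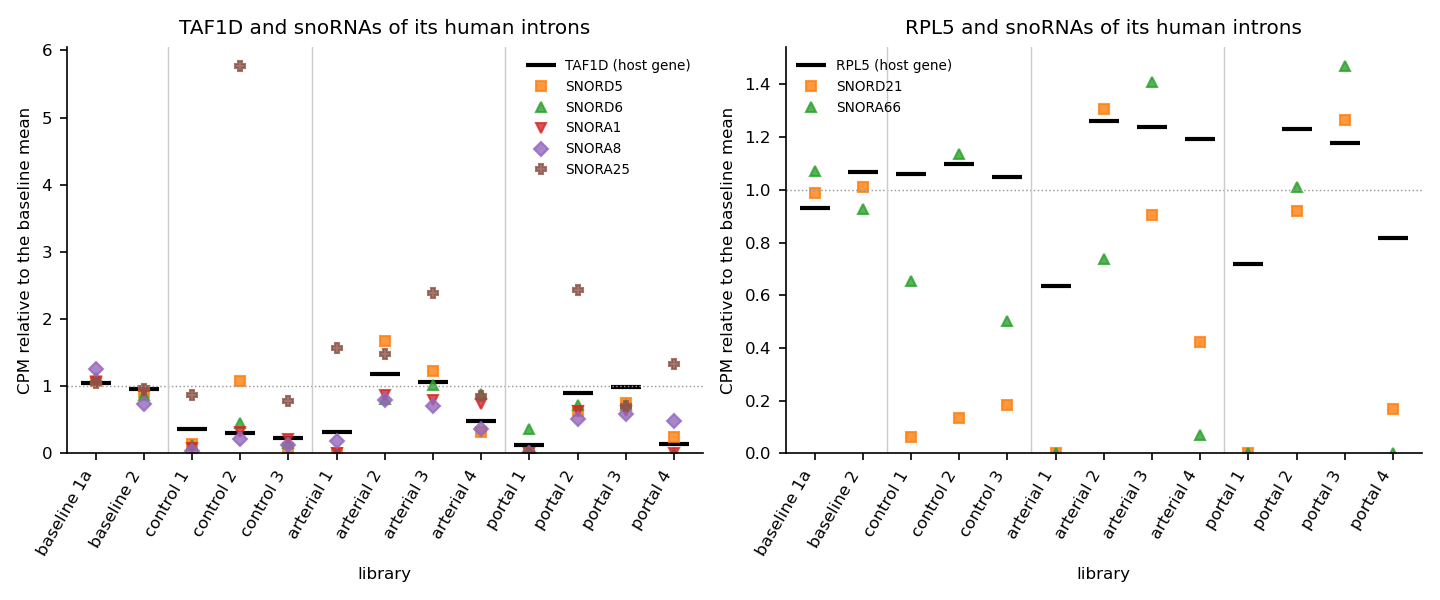
CPM relative to the mean of the 2 baseline libraries (vertical axis) in each library (horizontal axis) for TAF1D and RPL5 (black bars) and the snoRNA rows that lie in their introns in human (symbols). In controls TAF1D lies at 0.237 to 0.368 of baseline. SNORA8 lies at 0.0345 to 0.210 there, SNORA1 at 0.0857 to 0.314 and SNORA25 at 0.775 to 5.76. SNORD5 and SNORD6 lie below TAF1D in controls 1 and 3 and above it in control 2. RPL5 lies at 1.05 to 1.10 in controls, SNORA66 at 0.501 to 1.14 and SNORD21 at 0.0616 to 0.184.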

How the data were processed

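The 13 poly-T-selected, non-directional libraries of pig liver were sequenced for the study, and some may share an animal. Per the study's methods and the submitters' processing notes, HISAT2 aligned the reads to pig assembly Sscrofa11.1 and FeatureCounts assigned them to Ensembl genes, and the authors deposited the raw counts without normalization. The sources used here give neither tool versions nor a rule for multi-mapping reads. Groups and replicate numbers came from the labels, and 0 columns were left without a sample. No libraries of a group were copies of each other (smallest chi-square per gene 77.1).

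Counts were tested with edgeR 4.0.16 under R 4.3.3 (TMM scaling, filterByExpr filter, quasi-likelihood F-test, 4 groups in 1 fit, Benjamini-Hochberg adjustment, threshold 0.05), which left 16481 genes and a common biological coefficient of variation of 0.729. The standard errors given with edgeR fold changes are the absolute log2 fold change divided by the square root of F. They are derived from the test and are not standard errors printed by edgeR. DESeq2 1.42.0 was an alternative. Exact permutation tests (scipy 1.17.1) used the difference in means of log2(CPM + 1). The edgeR test was tried on simulated data first. Library totals limit precision as given above. Intervals cover counting error only and treat each read as independent, although reads carry no molecular identifiers.

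The rows named are the 8 SNORD, 8 SNORA and 3 SCARNA rows of highest mean CPM, all rows of SNORD21 and SNORD24, which the study names, and in each of 6 comparisons the 3 rows with the smallest p. SNORD1C, SNORD123, SNORA1, SNORA8, SNORA25, SNORA66, SCARNA10 and SCARNA16 were named after their values were seen. The members and lists were chosen with earlier results of these data known. Since the study chose SNORD21 and SNORD24 on these libraries, their values are not independent evidence. The study called both with DESeq2 (adjusted p under 0.05) in samples high in human B2M, its marker of the infused cells, against ischemic controls. Which libraries those were is not given in the sources used here, and all infused livers are pooled here. The study also used DESeq2 for controls against baseline, so its calls and those of edgeR here come from different tests. Alternatives tried were DESeq2 on all or on the compared libraries, edgeR on the compared libraries, RLE normalization, other filters, the replicate number as a block, other scales and members for the sums and shares, each library left out in turn and, added after the data were seen, 3 libraries left out together. Sequences and coordinates of the snoRNAs are not used here.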

Additional observations from a re-analysis of the deposited data

Results flagged for a closer look

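A library was marked where it stood apart from the other 3 of its infused group by Dixon's test at the 95% level. Of 72 groups of 4 examined, for 31 named rows and 5 sums and shares, 8 held such a library. A group with 0 in all but 1 library is always marked, however few reads that library has. The 8 marks are therefore not set against a rate for chance. SCARNA12 had 3.00 CPM in arterial 4 against 0.925 to 1.02 CPM in arterial 1 to 3, and SNORD22 (ENSSSCG00000025513) had 5.45 CPM in portal 1 against 2.18 to 2.43 CPM in portal 2 to 4. SCARNA7 had 0.430 CPM in arterial 1 and 0 in the other arterial livers. SNORA51 had 0.424 CPM in arterial 3 against 0 to 0.0411 CPM, SNORD45B had 0.0566 CPM there against 0, and SNORA29 had 0.0283 CPM there against 0. In portal 3, SNORD45A had 0.102 CPM and SNORA29 0.136 CPM, against 0 in the other portal livers. The values of SNORD45A, SNORD45B and SNORA29 rest on 1 to 4 reads.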

How the results depend on the processing

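No snoRNA row was called by edgeR under any alternative run, and DESeq2 over the 5 libraries of controls and baseline called 20. Counts of all genes called, 0 in each comparison, were 5, 1, 4 and 1 with DESeq2 over all libraries (control against baseline, infused against control, portal against control, arterial against portal), and 7 for any difference between the groups. With DESeq2 over the compared groups they were 166 (control against baseline) and 3 (portal against control). Without the filter on low counts they were 30, 19, 11, 14, 5 and 95 in the order control against baseline, infused, arterial and portal against control, arterial against portal, and any difference. At an unadjusted p under 0.05, 720, 353, 258, 460, 396 and 394 genes and 18, 6, 6, 5, 0 and 3 snoRNA rows passed in edgeR. With 1 library left out, 0 genes and 0 snoRNA rows were called in each comparison. The mean log2 difference of the summed level was -1.66 for controls against baseline (-2.35 to -1.31 with 1 library left out), 0.72 for infused livers against controls (0.36 to 1.40), 0.79 for arterial (0.44 to 1.47) and 0.65 for portal infusion against controls (0.29 to 1.33), and 0.14 for arterial against portal (-0.10 to 0.51). The box C/D share differed by -0.322 points between controls and baseline (-1.07 to 0.969), but by -4.18 points without SNORD99, the row with the most reads, and by -2.51 points between arterial and portal infusion (-3.82 to -0.706), but by 0.637 points without arterial 1, portal 1 and portal 4. It differed by 1.12 (-0.169 to 1.87), -0.133 (-1.44 to 0.884) and 2.38 points (0.573 to 3.49) between infused, arterial and portal livers and controls.

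Of 850 alternatives of 41 named log2 fold changes, 26 turned the direction, on 10 results near 0 or resting on 1 library, and 7 passed the threshold, all with DESeq2 over the 5 libraries. SNORD93 (controls against baseline) turned from -0.03 to 0.00545 with DESeq2 over all libraries, 0.0507 with DESeq2 over the compared groups, 0.000962 with RLE and 0.00829 without arterial 1, portal 1 and portal 4, and ranged from -0.85 to 0.51 with 1 library left out. SNORD24 (ENSSSCG00000057762), infused against control, turned from 0.06 to -0.00471 and -0.00190 with DESeq2 over all and over the compared libraries, and ranged from -0.49 to 1.34. With 1 library left out, SNORD99 ranged from -0.18 to 2.61, SNORD22 (ENSSSCG00000025513) from -1.15 to 2.14, SNORA33 from -1.56 to 0.81, SNORA52 from -1.45 to 1.13, SNORA24 from -0.85 to 0.40, SNORA31 from -0.44 to 0.38, SCARNA12 from -0.0595 to 1.22 and SCARNA7 from -0.37 to 3.35 (controls against baseline). The cause was not tested.

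Whether the replicate numbers pair libraries of the same animal was not decided. Deviations of same-numbered libraries from their group means correlated from -0.422 to 0.428. The groups hold only 2 to 4 libraries and differently numbered pairs were not compared, so these correlations cannot decide it. With the replicate block, 0 genes and 0 snoRNA rows were called in each comparison, and SNORA33 turned to -0.36, SNORA52 to -0.97 (controls against baseline) and SNORD24 (ENSSSCG00000057762) to -0.55 (infused against control). Depth limits the rows with few reads: 42 of the 153 rows were not tested, and a count of 0 in a library allows up to 3 reads.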

Other observations

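Other small RNAs of the count table differed in how they varied. The 51 rows named U6, a spliceosomal RNA, summed to 5.46 and 2.94 CPM at baseline and 1.43, 7.22 and 3.11 CPM in controls. They summed to 14.1 CPM in arterial 1, 21.1 CPM in portal 1 and 15.0 CPM in portal 4, against 2.72 to 5.46 CPM in the other 5 infused livers, so that U6 rows were highest where most snoRNA rows had 0 reads. The 2 rows of RNase P and MRP RNA had 9.75 CPM in control 2, against 0.485 and 0.151 CPM in controls 1 and 3 and 0.420 and 0.149 CPM at baseline. They had 4.47 CPM in portal 1, 2.52 CPM in portal 4 and 1.69 CPM in arterial 1, against 0.320 to 0.905 CPM in the other infused livers. The 8 rows named U1 had 4.00 CPM in arterial 1, 4.13 CPM in portal 1 and 1.12 CPM in portal 4, against 0.170 to 0.863 CPM in the other infused livers. The single row of U3, a box C/D RNA whose name falls outside the rule, had 20 reads in all, none of them in a control. It also had 0 reads in arterial 1, portal 1 and portal 4. The 6 rows named U2 had 0 CPM in arterial 1 and portal 1, but 1.26 CPM in portal 4, the highest of the 13 libraries. The 2 rows of 5.8S ribosomal RNA had 23.5 CPM in portal 4, 8.02 CPM in portal 1 and 6.38 CPM in arterial 1. They had 1.22 to 4.61 CPM in the other infused livers and 7.43 CPM in control 2. The 48 miRNA rows summed to 59.8 and 861 CPM at baseline and to 20.5, 40.0 and 13.04 CPM in controls, so that all controls lay below baseline, and arterial 3 reached 1357 CPM. These values were not tested.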
